A study of Mus musculus with 12 samples.

Results

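The lncRNA table of this study held 42870 transcripts, and 13756 of them (32.1%) carried only a provisional mouse gene name, of the form Gm plus a number or an identifier ending in Rik, that was not the name of any gene in the mRNA table. These 13756 predicted Gm and Rik transcripts came from 9107 gene names, with 9993 transcripts of 7203 Gm names and 3763 transcripts of 1904 Rik names. A further 453 rows fitted the name pattern but shared their name with a gene of the mRNA table and were left out. Annotated Ensembl identifiers were given for 13025 of the transcripts, and 731 had been assembled from the reads. One transcript was listed for 6639 of the 9107 names.

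The libraries were made from MTEC1, which the labels call a wild-type mouse medullary thymic epithelial line. PAMK-treated cultures received 50 µg/ml of PAMK, usually an abbreviation for a polysaccharide of the rhizome of Atractylodes macrocephala, for 12 h. Control cultures were untreated and, per the design text of the series, grown for 6 h, so treatment and culture time cannot be told apart. Each group had 3 rRNA-depleted total RNA libraries. The labels do not say whether these were separate cultures, so a p-value here sets the group difference against a library spread that may be only technical.

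Gm names are given by mouse nomenclature to gene models predicted from sequence or annotation, and Rik names go back to the RIKEN full-length cDNA collection. Both are placeholders that are dropped once a gene is characterised, so the class mixes long noncoding RNAs with pseudogenes, small RNA genes and antisense transcripts. It also holds 67 names that RefSeq lists as protein-coding. Many lncRNAs are known to lie beside or opposite coding genes, to start from promoters shared with them, or to serve as hosts from whose introns snoRNAs or miRNAs are processed. Some Rik names here have since been replaced: RefSeq lists 1810026B05Rik as Chaserr, a lncRNA known to restrain the neighbouring Chd2, and 2900097C17Rik as Norad, a lncRNA known to bind Pumilio proteins.

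Promoters are shown for 5 of the genes because, over all member promoters found, the share of CpG pairs differed with level. Each is 300 bases from RefSeq on GRCm38.p6, 5′ to 3′ on the gene's own strand, with the annotated start at base 251 and every CpG pair in capitals. The windows are chr17:34952422-34952721 on the minus strand for 1110038B12Rik, chr11:62602627-62602926 on the plus strand for 2410006H16Rik, chr9:88858821-88859120 on the minus strand for 9330159M07Rik, chr13:107022320-107022619 on the plus strand for 3830408C21Rik and chr9:103960091-103960390 on the minus strand for Gm29154.
1110038B12Rik: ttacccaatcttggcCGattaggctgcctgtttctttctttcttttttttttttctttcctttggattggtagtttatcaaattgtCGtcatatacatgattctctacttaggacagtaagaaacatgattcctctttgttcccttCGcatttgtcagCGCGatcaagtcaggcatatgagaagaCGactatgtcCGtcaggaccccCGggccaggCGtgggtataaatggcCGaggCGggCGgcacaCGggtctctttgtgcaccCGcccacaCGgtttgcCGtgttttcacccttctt
2410006H16Rik: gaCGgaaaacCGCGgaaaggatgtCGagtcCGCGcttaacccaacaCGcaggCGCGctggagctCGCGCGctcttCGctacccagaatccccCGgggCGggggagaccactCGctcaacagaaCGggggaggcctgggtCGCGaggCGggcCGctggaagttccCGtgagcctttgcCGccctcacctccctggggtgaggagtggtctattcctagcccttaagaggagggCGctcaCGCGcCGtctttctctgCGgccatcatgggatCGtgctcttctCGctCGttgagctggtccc
9330159M07Rik: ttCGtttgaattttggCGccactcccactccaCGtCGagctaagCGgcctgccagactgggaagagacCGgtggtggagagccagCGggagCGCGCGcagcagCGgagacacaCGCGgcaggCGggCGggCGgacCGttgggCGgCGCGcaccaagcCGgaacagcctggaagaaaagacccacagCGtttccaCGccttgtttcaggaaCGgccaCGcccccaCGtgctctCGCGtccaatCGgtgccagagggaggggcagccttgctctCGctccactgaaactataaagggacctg
3830408C21Rik: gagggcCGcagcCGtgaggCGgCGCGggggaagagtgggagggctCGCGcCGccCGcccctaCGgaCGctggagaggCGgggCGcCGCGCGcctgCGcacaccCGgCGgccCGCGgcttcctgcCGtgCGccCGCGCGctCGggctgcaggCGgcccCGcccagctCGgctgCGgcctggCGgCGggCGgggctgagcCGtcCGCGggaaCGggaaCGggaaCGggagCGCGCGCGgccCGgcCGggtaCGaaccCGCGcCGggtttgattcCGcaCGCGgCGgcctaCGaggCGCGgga
Gm29154: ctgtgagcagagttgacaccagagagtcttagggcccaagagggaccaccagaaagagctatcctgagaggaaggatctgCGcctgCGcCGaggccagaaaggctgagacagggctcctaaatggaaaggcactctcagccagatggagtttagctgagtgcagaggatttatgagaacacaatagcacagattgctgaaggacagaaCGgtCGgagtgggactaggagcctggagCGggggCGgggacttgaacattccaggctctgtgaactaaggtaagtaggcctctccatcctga
The first 4 belong to expressed genes, with summed means of 135.7, 10.0, 3.07 and 0.904 FPKM, and held 16, 31, 30 and 57 CpG pairs. Among these 4 the gene of highest level thus held the fewest pairs and that of lowest level the most. The fifth, of a name with 58 transcripts that were all at 0 in the 6 libraries, held 7. The ratio of observed to expected CpG was 0.943, 0.959, 0.947 and 1.15 in the first 4 and 0.326 in the fifth. Each lay above the median of its level class, given below, so these 5 do not stand for their classes. A deposited transcript end lay within 1 base of each of these 5 starts.

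Most of the predicted transcripts were listed at 0 in these libraries. Of the 13756, 8792 (63.9%) were at 0 in all 6 libraries, 2726 (19.8%) were above 0 in all 6, and 815 (5.92%) reached a mean of 1 FPKM, fragments per kilobase of transcript scaled to library size. A mean of 10 FPKM was reached by 45. Of all lncRNA rows 31.9% were at 0 throughout, against 46.3% of other named lncRNA transcripts and 15.6% of noncoding transcripts named for an mRNA-table gene. In bulk libraries fewer cells with a transcript and less RNA per cell cannot be told apart.

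How a transcript entered the table went with its level. Annotated members were at 0 in all libraries in 67.5% of cases and assembled members in 0.274%; assembled models are built from reads. Gm and Rik names were alike, with 65.4% and 59.8% at 0 throughout and 5.81% and 6.22% at 1 FPKM or more. Among members with a mean of at least 0.1 FPKM the median level was 0.357 FPKM for the annotated and 1.17 FPKM for the assembled.

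**Figure D1:**
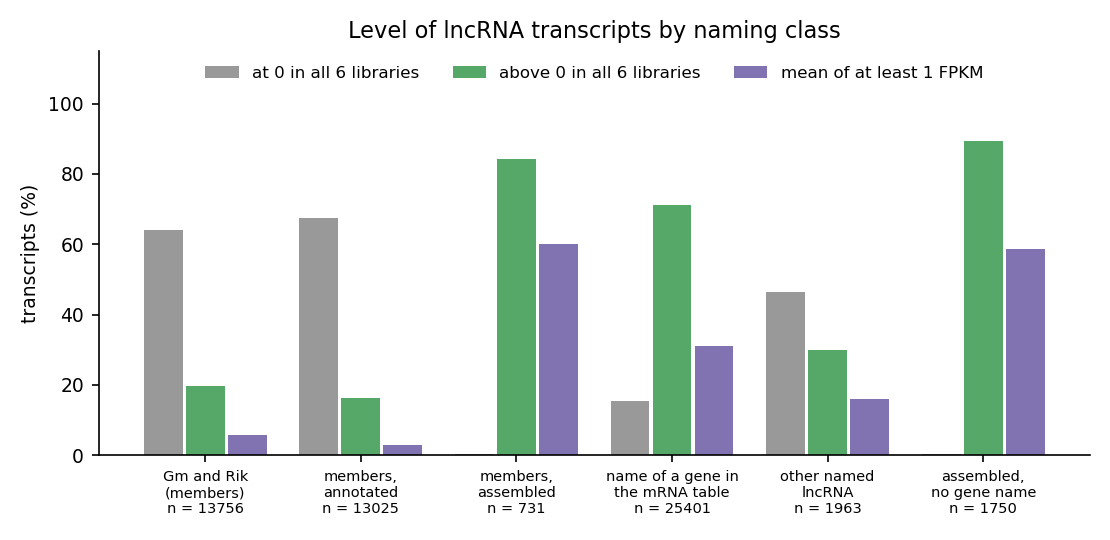
Percent of transcripts (y axis) at 0 in all 6 libraries, above 0 in all 6, or with a mean of at least 1 FPKM, for the Gm and Rik members, their annotated and assembled parts and 3 other classes of the lncRNA table (x axis, with the number of transcripts). The members have the tallest bar at 0 of the 4 undivided classes, 63.9%.

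The members were spread over every chromosome, and the Y chromosome stood apart. It held 961 of them beside only 172 genes of the mRNA table, or 558.7 members per 100 such genes. On the autosomes that ratio ran from 28.1 on chromosome 11 to 112.6 on chromosome 13, and on X it was 22.9. Of the Y members 940 (97.8%) were at 0 in all libraries, where the other chromosomes ranged from 50.5% (chromosome 15) to 70.0% (chromosome 10). Of the 20 Y members with a mean of at least 0.1 FPKM, 16 belonged to Gm47283, at chrY:90784738-90825433. Its 19 transcripts summed to 33.0, 20.7 and 27.7 FPKM in controls 1 to 3 and to 27.2, 27.5 and 33.5 with PAMK. Mouse X and Y share sequence at that end of the Y, so reads of an X copy cannot be told from it.

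A few names held most of the signal. Summed by name, 679 of the 9107 genes reached 1 FPKM and 46 reached 10. The 4 names that RefSeq lists as snRNA genes, RNAs of the spliceosome, took 24.02% to 58.8% of the members' summed FPKM per library, and 72 pseudogene names took 10.5% to 26.3%. The 4034 names listed as lncRNA took 15.0% to 25.8%, and the 67 listed as protein-coding took 0.393% to 2.42%. The remaining signal was largely that of 4897 names with no RefSeq match, 14.1% to 26.7%.

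The highest values came from a single array on chromosome 1. There 12 assembled transcripts named Gm23472 or Gm25360, at chr1:72222447-72255264, span 4 snRNA genes of 191 bases each. Their sum was 1979, 2648 and 4105 FPKM in controls 1 to 3 and 2447, 1399 and 5787 FPKM in PAMK 1 to 3. The groups overlapped, and the highest and lowest sums were both PAMK libraries. How that sum was shared among the 12 was not stable, as 10 of them were at 0 in at least one library. MSTRG.1345.2, for example, was at 2025 FPKM in control 3 and at 0 elsewhere, so single transcripts of this array are uncertain.

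Pseudogene names came next. Reads of a pseudogene can be hard to tell from those of a similar parent gene, which was not tested here. Gm5559 was at 222, 24.3 and 300.1 FPKM across controls, and stood at 299, 977 and 565 FPKM with PAMK. Gm12715 was at 158, 183 and 24.5 FPKM and at 95.6, 70.8 and 48.7 FPKM. In both, libraries of one group differed more than 2-fold and the groups overlapped. Gm4617, by contrast, did not overlap between groups: 67.1, 69.8 and 90.0 FPKM in controls and 102, 94.9 and 106 FPKM with PAMK, a log2 fold change of 0.43 ± 0.17 (SE) with a limma adjusted p of 0.839 as a gene sum. Gm11338 is a 200 kb assembled model at chr13:23561908-23762253 across a cluster of replication-dependent histone genes, among them H1f2, H2ac4 and H1f4, and its gene sum ranged from 112.5 to 190.7 FPKM.

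Abundant lncRNA proper was led by 1110038B12Rik, on the minus strand of chromosome 17, which holds the snoRNA gene Snord52. Its 9 transcripts summed to 128, 129 and 124 FPKM in controls and to 149, 138 and 146 FPKM with PAMK. The groups did not overlap, but the log2 fold change was 0.19 ± 0.14 (SE) with a limma adjusted p of 0.933. 2410006H16Rik, which holds Snord49a, Snord49b and Snord65, was likewise slightly higher in each PAMK library, at 10.8, 10.01 and 10.96 FPKM against 9.47, 9.22 and 9.59, with a log2 fold change of 0.17 ± 0.15 and a limma adjusted p of 0.934. Both starts lie in the CpG-rich windows printed above.

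Next in level among RefSeq lncRNA names was 9330111N05Rik, which was not steady. It summed to 87.5, 114.8 and 35.3 FPKM in controls and 73.6, 67.9 and 100.8 FPKM with PAMK, overlapping groups. Norad (2900097C17Rik) and 4933404O12Rik, named here after their values were seen, were steady at lower levels. Norad was at 32.5, 36.8 and 34.2 FPKM across controls, and stood at 30.3, 31.8 and 28.4 with PAMK. Each control lay above each PAMK library, with a log2 fold change of -0.19 ± 0.16 (SE) and a limma adjusted p of 0.906, and no coding gene lay within 10 kb. 4933404O12Rik was between 29.0 and 37.5 FPKM in all 6 libraries. Gm28967, a short transcript inside Ncapd2 on the same strand, was between 36.5 and 42.1 FPKM in all 6, and its reads cannot be told from those of Ncapd2. Chaserr (1810026B05Rik) summed to 2.75, 2.49 and 2.14 FPKM in controls and 1.60, 1.85 and 2.47 FPKM with PAMK, overlapping groups.

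**Figure D2:**
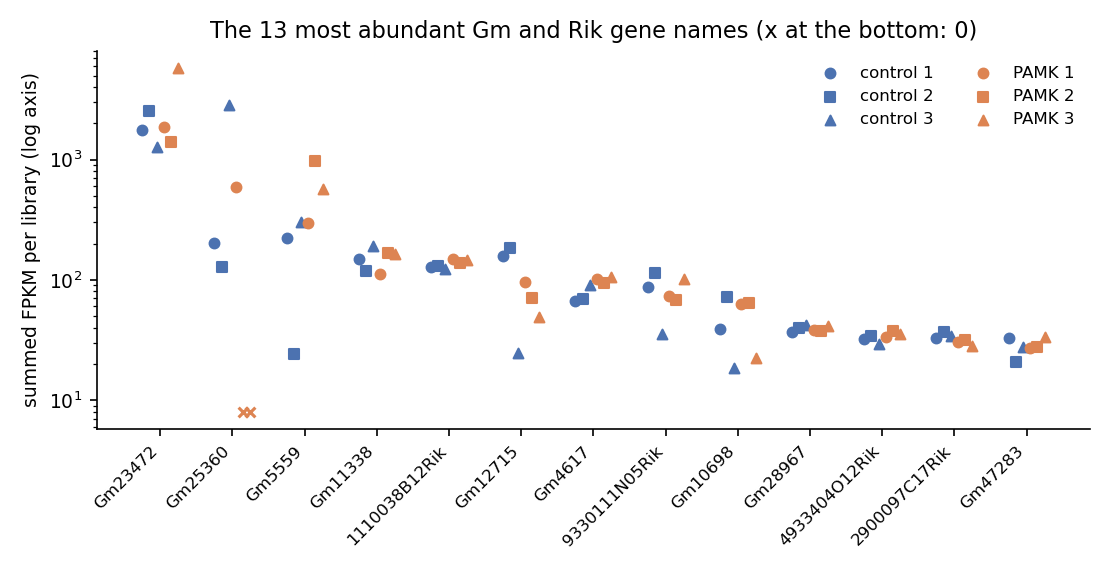
Summed FPKM (log y axis) of the 13 most abundant Gm and Rik names (x axis), 1 point per library, controls in blue and PAMK in orange, with a cross at the bottom for a library at 0. Points lie close together for 1110038B12Rik, Gm28967, 4933404O12Rik and Norad (2900097C17Rik). They are spread for the snRNA names, the pseudogene names Gm5559, Gm12715 and Gm10698, and the lncRNA name 9330111N05Rik. The pseudogene names Gm11338 and Gm4617, and Gm47283, lie between, with a highest over lowest library of 1.70, 1.58 and 1.61.

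That difference in steadiness followed the origin of the transcript. Of the 46 names at 10 FPKM or more, 30 drew most of their signal from assembled transcripts, and 11 of these 30 ranged over 3-fold or more or were at 0 in a library. Among the 16 drawn mostly from annotated transcripts, 2 did. For single transcripts at 10 FPKM or more the median SD within a group, on log2(FPKM + 0.1), was 0.14 for 16 annotated and 1.32 for 29 assembled members. At 1 to 3 FPKM it was 0.29 and 0.35.

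Names that hold small RNA genes had larger shares of measured genes, on small numbers and with no test. A small RNA gene counted as held if it lay within the RefSeq span of the gene, on either strand. Of the member genes that hold a RefSeq snoRNA gene, 7 of 40 (17.5%) reached 1 FPKM, as did 4 of 29 (13.8%) that hold a miRNA gene and 275 of 3965 (6.94%) RefSeq lncRNA names that hold neither. A330023F24Rik, the host of Mir29b-2 and Mir29c, summed to 8.91, 5.06 and 5.15 FPKM in controls and to 5.85, 6.84 and 6.07 with PAMK. 2900076A07Rik, which holds Mir1839, was between 6.15 and 8.47 FPKM in the 6 libraries. C130071C03Rik, which holds the neural miRNA gene Mir9-2, was at 0 in every library, as was F630028O10Rik, which holds Mir223, a miRNA of myeloid cells. These are levels of the spliced or unspliced host, not of the small RNAs.

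Many of the class lay beside coding genes, and a larger share of those beside expressed genes was measured. The shares are descriptions with no test, since transcripts of one gene are not independent. A gene of the mRNA table lay within 10 kb of 6877 members (50.0%), and 4530 (32.9%) overlapped one: 3913 only on the opposite strand, 496 only on the same strand and 121 on both or with no strand given. A mean of at least 0.1 FPKM was reached by 51.3% of the 4167 members with a neighbour that was itself at a mean of 0.5 FPKM or more. It was reached by 9.48% of the 2710 whose neighbours were all below that, and by 7.501% of the 6879 with no gene within 10 kb. The share went up with the highest neighbour's level, from 1.56% where it was at 0 through 46.1% at 0.5 to 5 FPKM to 60.4% at 50 FPKM or more.

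The shares were also taken over members that overlap no coding gene. Among the 2347 members with a gene within 10 kb but no overlap, 43.8% reached 0.1 FPKM beside a neighbour of at least 0.5 FPKM and 11.2% beside lower ones. With annotated members only, which assembly from reads cannot have added, the 2 shares were 33.8% and 6.95%. By distance the share was 40.0% with the nearest gene at up to 1 kb, 31.2% at 1 to 5 kb, 17.9% at 5 to 10 kb, 11.5% at 10 to 50 kb and 5.28% with none within 50 kb. Starts that diverge from a coding gene's start within 1 kb were found for 1385 of all members, which include members that overlap a coding gene. Of the 942 that diverge from an expressed gene 53.4% reached 0.1 FPKM, near the 51.3% of all members with an expressed neighbour. Whether the counting used strand was not stated, so for overlapping pairs reads of a member and of its partner cannot be told apart.

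**Figure D3:**
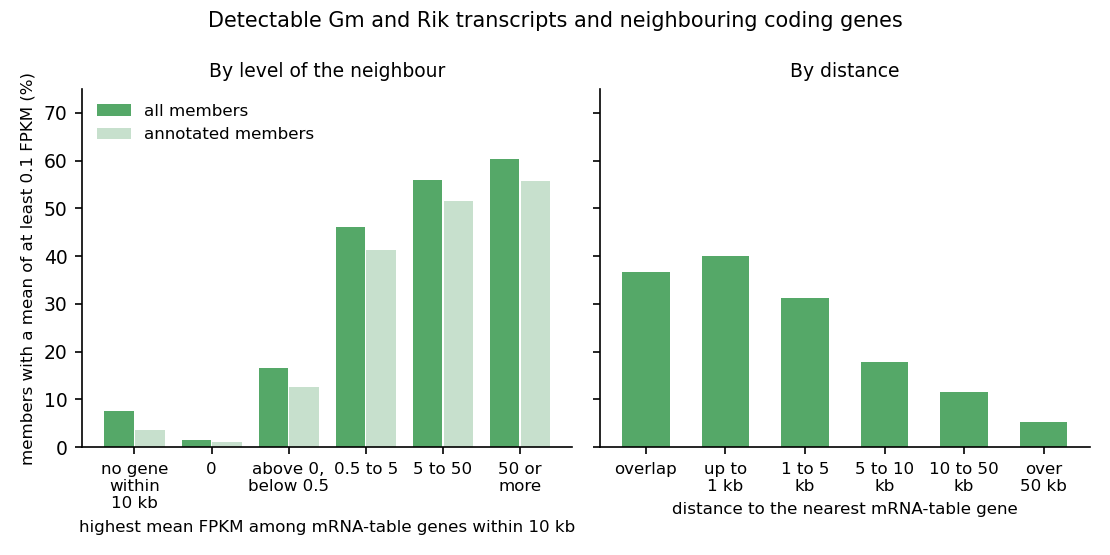
Percent of members with a mean of at least 0.1 FPKM (y axis, bars) by the highest level among mRNA-table genes within 10 kb (left, all members and annotated members) and by the distance to the nearest such gene (right, all members). On the left the bars stand at 1.56% for neighbours at 0 and at 60.4% for neighbours of 50 FPKM or more, and on the right they go from 40.0% at up to 1 kb to 5.28% beyond 50 kb.

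Promoters of the measured genes were richer in CpG. A RefSeq promoter was found for 3244 member genes, 2096 of which had a deposited transcript start within 100 bases. Names that RefSeq lists as protein-coding were not left out, and Gm14279 is an example. The median ratio of observed to expected CpG was 0.230 in the 2007 at 0 in all libraries, 0.283 in the 534 above 0 but below 0.1 FPKM, 0.395 in the 454 from 0.1 to 1 FPKM and 0.593 in the 249 at 1 FPKM or more. Coding promoters had a median of 0.576. Median GC content went from 47.7% to 56.3% over the same 4 classes.

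Short motifs were then counted on both strands of the same 300-base windows. GGGCGG, the core of the GC box, was present in 12.1%, 23.8%, 36.3% and 47.4% of the 4 classes from silent to highest, against 35.9% of all 27025 promoters. It contains a CpG, so it follows the CpG ratio in part by its letters. CCAAT was present in 37.9% of the silent and 40.2% of the highest class (37.9% of all promoters), TATAAA in 17.5% and 9.64% (14.2%), and CACGTG in 5.38% and 10.0% (7.24%). These are matches of letters, and the classes were not tested against each other because neighbouring genes share promoters and sequence.

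**Figure D4:**
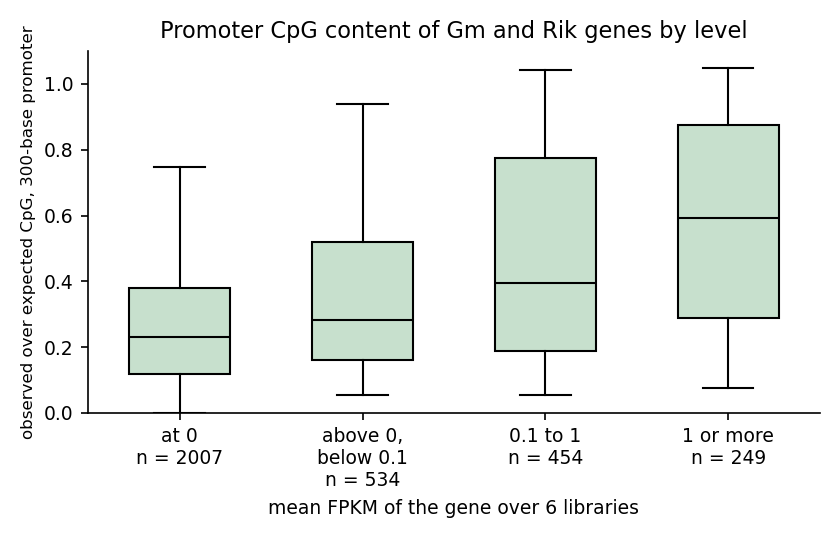
Ratio of observed to expected CpG in the 300-base promoter (y axis) of 3244 Gm and Rik genes by mean FPKM class (x axis). Boxes are quartiles with the median as a line, and whiskers run from the 5th to the 95th percentile; the medians stand at 0.230, 0.283, 0.395 and 0.593.

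Libraries of one group resembled each other about as much as libraries of different groups. Across tested members the correlation of log2 values was 0.727 to 0.760 within controls, 0.729 to 0.748 within PAMK and 0.703 to 0.770 between groups (these are across transcripts, which are not replicates). Control 1 had the highest median, 0.563 FPKM, against 0.427 and 0.414 in controls 2 and 3 and 0.468, 0.498 and 0.491 in PAMK 1 to 3. Of 10 thymic epithelial markers in the mRNA table only Ly75 reached 0.5 FPKM, and Epcam, Krt5, Krt14, Aire and Cldn4 were at 0 throughout, with summed levels of 2.10 to 2.37 FPKM in controls and 1.18 to 2.55 with PAMK. By contrast 6 of 8 fibroblast or mesenchymal markers reached 0.5 FPKM, with summed levels of 443 to 570 FPKM in controls and 508 to 711 with PAMK, so the tissue label was not borne out by these markers. The groups overlapped in both lists. Of 6 haematopoietic markers only Cd68 reached 0.5 FPKM, and Cd3e and Itgam were at 0 throughout, yet the summed levels did not overlap, at 0.465 to 0.954 FPKM in controls and 1.40 to 1.66 with PAMK. None of 3 endothelial markers reached 0.5 FPKM, Kdr was at 0, and their sums were 0.00191 to 0.0124 and 0.0136 to 0.0597 FPKM, again without overlap. The part of these levels in the results was not tested.

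No predicted transcript passed the adjusted threshold between PAMK and control. Of 2912 tested members, those with a mean of at least 0.1 FPKM, 0 had a limma adjusted p under 0.05, where 9 of all 23670 tested lncRNA transcripts did (0.038%), and the smallest member value was 0.227. At an unadjusted p under 0.05 there were 78 members higher with PAMK and 36 lower (2.68% and 1.24%), against 3.62% and 2.15% of all tested transcripts, and 114 (3.91%) in either direction against 5.76%. The difference from the background was not tested, and it varied among members: the share was 3.14% of 2196 annotated, 6.28% of 716 assembled and 6.20% of the 516 with no coding gene within 10 kb. With library medians made equal the split was 65 and 51 (2.23% and 1.75%, against 3.23% and 2.94% of all tested), and after quantile normalization 63 and 56 (2.16% and 1.92%, against 3.30% and 3.00%). The median log2 fold change was 0.05 for members and 0.05 for all.

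The share of members with separate groups was close to that of the whole table. All PAMK libraries were above all controls for 215 tested members (7.38%, against 7.06% of all tested) and below for 104 (3.57%, against 4.23%). Without control 1 the counts at an unadjusted p under 0.05 were 138 higher and 31 lower (4.83% and 1.09%, against 5.90% and 2.04% of all tested), and the median log2 fold change was 0.15 for members and 0.16 for all. Without control 2 the counts were 59 and 45 (2.02% and 1.54%, against 2.92% and 2.38%), with medians of 0.013 and 0.00049. Without control 3 they were 56 and 37 (1.92% and 1.27%, against 3.00% and 2.48%), with medians of -0.023 and -0.018. The sign of the small median thus changed with the control left out. Summed by name, 0 of 2088 member genes passed the limma adjusted threshold (0.0205% of 9770), with 53 higher and 29 lower at an unadjusted p under 0.05 (2.54% and 1.39%, against 3.54% and 2.32% of all tested sums, or 3.93% against 5.86% in either direction).

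The members' part of all lncRNA signal did not separate the groups either. It was 7.21%, 7.02% and 8.42% of the lncRNA FPKM in controls and 7.80%, 6.83% and 11.7% with PAMK. The difference of 1.22 percentage points had an exact two-sided permutation p of 0.7, and 3 against 3 libraries cannot give less than 0.1. It rested on PAMK 3, where the snRNA array was highest: without that library it was -0.236 points, and without the members named for snRNA genes the means were 4.18% and 4.92% (exact permutation p 0.3).

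The smallest p among members lower with PAMK were those of Gm17077, 9330159M07Rik, Gm20633 and B930036N10Rik, in that order, and 0 of these 4 passed the adjusted threshold. Gm17077 (ENSMUST00000133179, chr7:30955825-30958004, plus strand) overlaps Usf2, a transcription factor gene, and Lsr on the opposite strand. Its level was 1.70, 0.625 and 0.585 FPKM in controls, and it was listed at 0 in each PAMK library (limma adjusted p 0.227). Usf2 itself was at 1.34, 2.12 and 2.31 FPKM in controls and 8.33, 2.39 and 2.19 with PAMK, with overlapping groups.

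Gm20633 (ENSMUST00000176742, chr3:96243550-96246380, minus strand) lies in a histone gene cluster, overlapping H2ac18 and lying 305 bases from H3c14. It was at 19.5, 24.4 and 54.6 FPKM across controls, and stood at 3.92, 4.98 and 5.70 FPKM with PAMK, so every control lay at more than 3 times any PAMK library. The log2 fold change was -2.60 ± 0.40 (SE) with a limma adjusted p of 0.274, and between 0.135 and 0.545 over the alternatives. H2ac19, 3274 bases away on the same strand, was at 128, 110 and 119 FPKM in controls and 67.8, 107 and 78.3 with PAMK (limma adjusted p 0.465, log2 fold change -0.51 ± 0.18). In controls H3c14 was at 23.4, 0.0600 and 26.8 FPKM, and its PAMK libraries lay between 28.2 and 31.2. H3c15, 4423 bases away on the same strand, was at 87.4, 3.27 and 114.9 FPKM in controls and 73.4, 142.7 and 98.7 with PAMK. Control 2 was thus the lowest library for both H3c14 and H3c15. The overlapped H2ac18 was at 0.181, 0.211 and 0.110 FPKM in controls and 0.287, 0.291 and 0.251 with PAMK. Its groups did not overlap, with PAMK the higher, and it lay below the level tested.

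B930036N10Rik (ENSMUST00000181170, chr1:171500568-171504111, minus strand) is a single transcript that overlaps Alyref2, an mRNA export factor gene, on the opposite strand. It was at 1.42, 1.60 and 1.66 FPKM across controls, and stood at 0.0272, 0.0261 and 0.331 FPKM with PAMK, with a log2 fold change of -3.12 ± 0.53 and a limma adjusted p of 0.342. PAMK 3 was the highest of its group. Without it the gene sum passed, with a limma adjusted p of 0.0294, while the transcript test gave 0.0653. Sum and transcript hold the same values here, fitted among 9746 sums and among 23573 transcripts. Alyref2 was between 0.185 and 0.521 FPKM in the 6 libraries and below the level tested.

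For 9330159M07Rik the transcript and the gene went apart. ENSMUST00000181448 was at 0.607, 0.405 and 0.878 FPKM in controls and 0.0450, 0.0267 and 0 with PAMK (limma adjusted p 0.266, log2 fold change -2.52 ± 0.38). The 6 transcripts of the name together were at 4.53, 2.07 and 3.20 FPKM and 2.57, 2.49 and 3.56 FPKM, which overlap. In 3830408C21Rik transcript and sum were both higher with PAMK. This gene, whose start lies 427 bases from that of Kif2a on the opposite strand, had a transcript (ENSMUST00000225489) listed at 0 in the controls and at 0.707, 0.167 and 0.404 FPKM with PAMK (limma adjusted p 0.562), and its sum was 0.871, 0.629 and 0.891 FPKM in controls and 1.11, 0.963 and 0.966 with PAMK. D030028A08Rik, opposite Sp2, and Gm27168 were the other members named among the lowest p in this direction, at 0.879 to 1.66 against 0 to 0.441 FPKM and 0.359 to 0.775 against 0 to 0.178 FPKM (limma adjusted p 0.752 for both).

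Higher values with PAMK included both a transcript and the gene sum of Gm26944. This gene, opposite the 3′ end processing gene Pcf11, had MSTRG.24694.6 at 0.190, 0.345 and 0.201 FPKM across controls, and stood at 0.719, 0.840 and 2.08 FPKM with PAMK. Its gene sum was higher in every PAMK library too, at 7.54, 9.06 and 8.45 FPKM against 6.40, 4.01 and 4.73, a log2 fold change of 0.74 ± 0.22 with a limma adjusted p of 0.763. Pcf11 varied within both groups, at 7.92, 0.862 and 8.67 FPKM in controls and 0.816, 0.674 and 8.30 with PAMK. 2310008N11Rik, with no coding gene within 10 kb, summed to 1.55, 1.92 and 2.15 FPKM in controls and 4.29, 3.18 and 2.76 with PAMK (limma adjusted p 0.763, log2 fold change 0.82 ± 0.24).

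The other members named in this direction were alike in separating the groups without passing. The transcript of Gm20468 was at 0.471 to 0.587 FPKM in controls and 0.935 to 1.77 with PAMK, and that of F630040K05Rik at 0.485 to 0.764 and 1.05 to 1.19. 9330188P03Rik had a transcript at 0.137 to 0.220 and 0.402 to 0.632 FPKM. Gm40849 was at 0.584, 0.226 and 0 FPKM in controls and 1.72, 1.07 and 4.74 with PAMK. The limma adjusted p of these transcripts lay between 0.712 and 0.814. Summed by name, the log2 fold change was 0.45 ± 0.21 (SE) for Gm20468 and 0.26 ± 0.18 for 9330188P03Rik, where the transcripts stood at 1.24 and 1.16. For F630040K05Rik and Gm40849 the sums stood at 0.88 and 2.77, and the transcripts at 0.88 and 2.95. The limma adjusted p of these sums lay between 0.691 and 0.933.

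**Figure D5:**
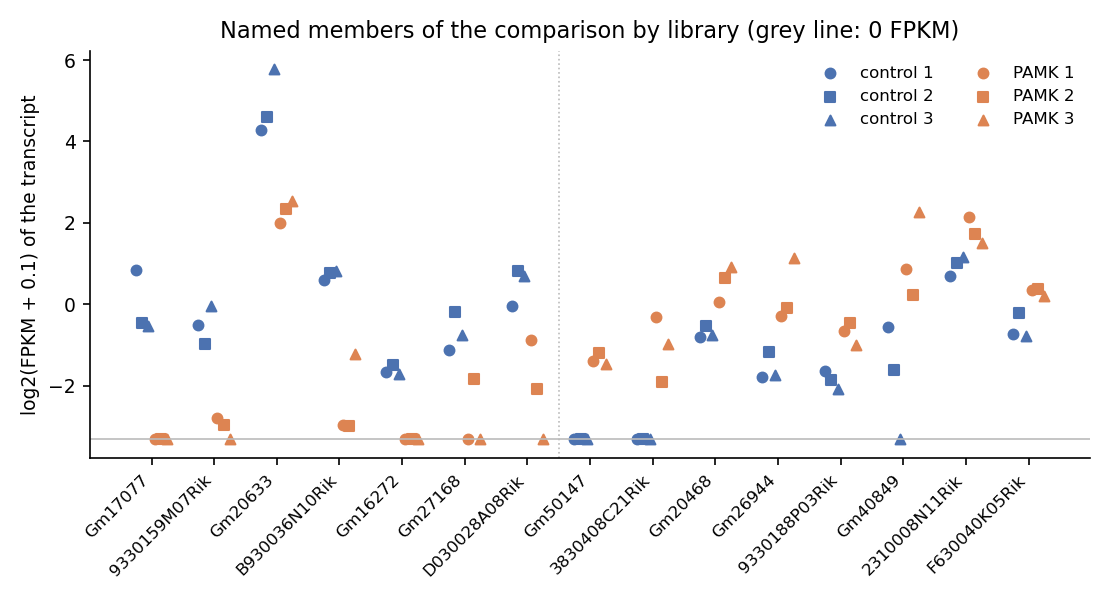
log2(FPKM + 0.1) (y axis) of 15 named member transcripts (x axis), 1 point per library, with controls in blue and PAMK in orange; members lower with PAMK stand left of the dotted line, and the grey line marks 0 FPKM. In each of the 15 the 3 controls and the 3 PAMK libraries do not overlap, which is how they were chosen, and 0 of them passed the adjusted threshold.

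In all, 5 members were above 0.1 FPKM in all 3 libraries of one group and at 0 in all 3 of the other. Gm50147 (0.278, 0.337 and 0.264 FPKM), 3830408C21Rik and Gm15589 (0.188, 0.129 and 0.126 FPKM) were measured with PAMK only, as 0.028% of all lncRNA rows were. Gm17077 and Gm16272 (0.214, 0.254 and 0.204 FPKM) were measured in controls only, as 0.0163% were. Gm15589 lies opposite the potassium channel gene Kcnh2, and Gm16272 opposite Adck2 and Ndufb2. The limma adjusted p was 0.305 for Gm50147 and 0.425 for Gm16272, and Gm15589 lay below the level tested.

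Among genes beside the members the called shares were near those of the mRNA table. Of 5369 mRNA-table genes within 10 kb of a member 2880 were tested, and 1 passed the limma adjusted threshold, against 7 of 9781 in all (0.0716%). At an unadjusted p under 0.05, 213 were higher with PAMK and 77 lower (7.3% and 2.71% of all tested genes were). The 1 gene was Rbm4, a splicing regulator, at 0.866, 0.706 and 0.711 FPKM in controls and 5.36, 5.57 and 6.00 with PAMK (limma adjusted p 0.0163). Its member neighbour Gm21844, 7611 bases away on the opposite strand, was at 0 in all 6 libraries. Gm21844 overlaps Rbm14, a further RNA-binding protein gene of this locus, and the mRNA-table gene Gm21992 on the opposite strand. Rbm14 was at 10.95, 13.2 and 8.21 FPKM in controls, against 5.36, 5.81 and 5.20 with PAMK. Its groups did not overlap, with a log2 fold change of -0.85 ± 0.17 (SE) and a limma adjusted p of 0.284. Gm21992 was listed at 0 in each control, with 0.735, 0.370 and 0.474 FPKM in PAMK 1 to 3. Without PAMK 1, 0 neighbour genes passed, and 2 to 6 passed without any other single library.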

How the data were processed

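Values came from the deposited lncRNA and mRNA tables of 3 control and 3 PAMK total RNA libraries, and the 6 small RNA libraries were not used. The file headers call the deposited values normalized counts. Here the deposited values were taken as FPKM, an inference from the table layout and from column totals that differ, and the depth behind each value is unknown. Tools named in the submitters' processing notes are StringTie, HISAT2, cutadapt, FastQC and edgeR. Their versions and roles, the build, the annotation and the use of strand were not stated. Positions are printed as deposited. RefSeq for GRCm38.p6 held 4189 of the member names, and the positions overlapped for 4174.

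The deposited placeholder of 0.0001 was set to 0. Rows with a mean of at least 0.1 FPKM were tested on log2(FPKM + 0.1) by a two-sided limma fit (version 3.58.1, R 4.3.3) with a trend on level and Benjamini-Hochberg adjustment over the whole lncRNA table at 0.05. Sums by name were tested in the same way, and mRNA gene sums with a mean of at least 0.5 FPKM on log2(FPKM + 1). Fold changes are PAMK over control on these scales and understate those of low transcripts. The fits were tested on simulated data. Distances run between the ends of a transcript and of a gene of the mRNA table. The files give no exons.

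Members could be named if they were among the 10 transcripts or 10 genes of highest level, or passed the adjusted threshold. They could also be named for a p among the 6 smallest per direction. For that, the groups could not overlap and either group had to average 0.5 FPKM or more. Further grounds were being measured in a single group only, having the most transcripts, or being on a list of known hosts and DNA copies. Not all members that met these rules are described. The members and lists were chosen with earlier results of these data known. Alternatives were other pseudocounts, filters, scalings and limma settings, a replicate block, and leaving out each library. The analyses of promoters, host genes, divergent starts and neighbour levels were added after the data were seen.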

Additional observations from a re-analysis of the deposited data

How the results depend on the processing

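Calls of member transcripts stayed at 0 under every other pseudocount, filter, scaling, limma setting and the replicate block, and ran from 0 to 2 when 1 library was left out. The 4 transcripts called in this way were of Gm7807 and Gm25360 without PAMK 1, of Gm17494 without control 1 and of Gm25360 without control 2, each with zeros inside a group. Members at an unadjusted p under 0.05 numbered 114, and 63 with a minimum mean of 0.5 FPKM, where 1474 were tested. The members' share of lncRNA FPKM differed by -0.236 to 2.19 percentage points without 1 library. Members measured in 1 group only numbered 5, with 1 above 0.5 FPKM and 24 for any measured value. Members that overlap a coding gene numbered 4530, against 6877 within 10 kb. Neighbour genes that passed numbered 1, with 2 at equal medians, 0 with the replicate block and 0 to 6 without 1 library. The cause of these shifts was not tested beyond the smaller number of rows or samples. Deviations of libraries with the same number correlated across members at -0.107, 0.032 and -0.131, and those with unequal numbers at -0.054 to 0.157. These are weak values of deviations from a group mean, so they cannot decide whether the numbers pair the libraries. With the replicate block 93 members had an unadjusted p under 0.05. The share without snRNA-named members, and the 2 further limma settings for neighbour genes, were chosen after seeing the data. No fragment counts were recovered, so no floor can be set for a transcript listed at 0.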
